A study of Homo sapiens with 2 samples.

Results

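The 48 genes described here encode subunits, assembly chaperones, activators and an inhibitor of the proteasome. They were chosen by symbol, as the protein-coding genes of GENCODE 44 on chromosomes 1 to 22, X and Y that are named PSMA, PSMB, PSMC, PSMD, PSME, PSMF or PSMG plus a number, and they are 48 of 20033 protein-coding genes. The rule reads symbols and no measured value, although earlier results of these data were known when the set was proposed. The proteasome is the protease that degrades most ubiquitin-tagged proteins in the cytosol and nucleus. Its 20S core is a barrel of outer alpha rings and inner beta rings, the beta rings hold the protease sites, and the 19S regulatory particle on either end binds ubiquitin, unfolds the substrate with a ring of ATPases and feeds it into the barrel. Most core and 19S subunits are essential in dividing cells, and the transcription factor NFE2L1 raises many of their genes together when proteasome activity is low. Methylglyoxal (MGO) is a reactive by-product of glycolysis that forms adducts on proteins, histones among them, and on DNA.

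The accessibility of these genes was read from ATAC-seq, in which the transposase Tn5 cuts and tags DNA that is not packed away, so that reads collect over open promoters and enhancers. The cells were 293T, a human line derived from embryonic kidney that expresses the large T antigen of SV40, and both cultures were changed to fresh medium before treatment. The MGO library came from 50000 cells exposed to 0.5 mM MGO for 12 h. The control library came from 50000 cells without MGO, whose treatment is labelled PBS in one place and described as plain medium in another. The number 2 in the peak names and a reproducibility step in the study's methods leave it unknown whether further libraries were made. With 1 library analysed per condition, no difference between them has a replicate check, and no test between the conditions was made. The authors subsampled the reads to one depth and called broad peaks in each library on its own, and since the peak lists carry no read counts, the depth behind a peak is unknown.

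A peak was kept where its −log10 q was at least 2, a q value of at most 0.01, which left 23458 of 36142 control peaks and 15738 of 22884 MGO peaks. A kept peak within 1000 bp of any annotated transcription start site (TSS) of a gene was taken as its TSS peak. Where a gene had several, the one with the highest −log10 p in that list was used. Intervals on shares are 95% Wilson intervals, which cover counting error only and treat genes as independent.

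The promoters of the proteasome genes were accessible in most cases in both libraries. In control cells 42 of the 48 genes had a TSS peak, or 87.5% (75.3 to 94.1%), against 63.3% of all protein-coding genes. In MGO-treated cells 40 did, or 83.3% (70.4 to 91.3%), against 57.8%. Among the 42 genes with a control peak, 40 had that peak overlapped in MGO by at least 1 bp, or 95.2% (84.2 to 98.7%), and the share over all protein-coding genes with a control TSS peak was 88.5%, which lies inside that interval. At stricter limits the order turned, with 51.7% of the members' control peaks overlapped against 68.7% of all at a minimum −log10 q of 5. PSMB2 and PSMB4 had a TSS peak in control only, a class that held 10.9% of protein-coding genes with a control peak. No member had one in MGO only, where the background was 2.47% of genes with an MGO peak, and a count of 0 among 40 genes allows a share of up to 7.5%. The other 6 genes, PSMA8, PSMB3, PSMB8, PSMB9, PSMB11 and PSMD5, had a kept TSS peak in neither list, against 35.2% of all protein-coding genes.

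**Figure D1:**
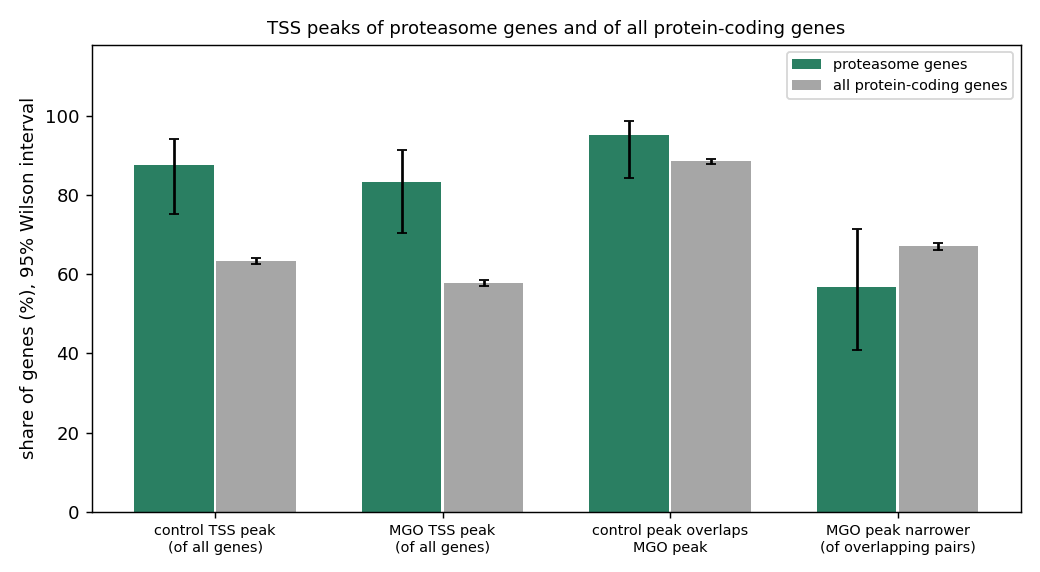
Bars give the share of genes in percent for the proteasome genes (green) and all protein-coding genes (grey), and error bars are 95% Wilson intervals. The proteasome genes stand at 87.5% with a control TSS peak and 83.3% with an MGO TSS peak, above the grey bars at 63.3% and 57.8%, while the intervals for overlapping peaks and for narrower MGO peaks reach the grey bars.

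The counts differed by role, in small groups with no test between them. All 17 members that encode subunits of the 19S particle had a TSS peak in both libraries. Of the 14 genes of the constitutive 20S rings, 13 had one in control and 11 in MGO. Of the 12 chaperones, activators and inhibitor, 11 had one in each library. Of the 5 immune or tissue-specific subunits, PSMB10 alone had one. Over all protein-coding genes the shares were 63.3% in control and 57.8% in MGO. Among the genes without a peak, PSMB3, PSMB8 and PSMB9 have copies elsewhere in the assembly, described below, which limits the reading of these counts. The 7 genes of the alpha ring all had peaks in both lists, so the 3 constitutive core genes without a complete pair, PSMB2, PSMB3 and PSMB4, all belong to the beta ring.

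PSMB2, PSMB3 and PSMB4 encode non-catalytic subunits of the beta ring, and all of them had a deposited MGO peak below the limit. It lay just below the limit at PSMB2 and PSMB4 and further below it at PSMB3. At PSMB2 the control peak spanned 1470 bp with a fold enrichment over background of 3.71 and a −log10 q of 4.93. The weaker MGO peak at the same start spanned 994 bp, with a fold enrichment of 2.83 and a −log10 q of 1.93 (q 0.0116). The control peak of PSMB4 was already weak, at 990 bp, a fold enrichment of 2.82 and a −log10 q of 2.39. Its MGO peak was wider, at 1315 bp, with a fold enrichment of 2.61 and a −log10 q of 1.92 (q 0.0121). PSMB3 had no deposited control peak at its start and an MGO peak of 505 bp with a −log10 q of 1.65 (q 0.0223). With all deposited MGO peaks counted, each of the 42 control TSS peaks was overlapped, so the control-only calls at PSMB2 and PSMB4 turn on the q limit.

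The start regions of PSMB3, PSMB8 and PSMB9 differ from those of the other members in that each is repeated almost letter for letter in the genome assembly. GRCh38 carries alternate contigs, which hold other versions of some regions, and the authors removed reads that mapped to several places. An alignment of the 2001 bp around each canonical start found 1 copy of PSMB3, identical at 100% of aligned bases, and 7 copies each of PSMB8 and PSMB9, on the alternate contigs of the major histocompatibility complex (at least 99.7% identical). The other 45 members had none. On the copy of PSMB3 the control list held a peak of 506 bp with a fold enrichment of 3.04 and a −log10 q of 2.02, and the MGO list held none. The copies of PSMB8 and PSMB9 carried no peak in either list. Over the genome, 20.9% of the 820 protein-coding genes with such a copy had a control TSS peak (18.2 to 23.8%) and 16.1% an MGO TSS peak, against 65.1% and 59.6% of the 19213 genes without one. Among the members without a copy, 42 of 45 had a control TSS peak, or 93.3%, and 40 an MGO TSS peak, or 88.9%. The absence of a kept TSS peak at these 3 genes therefore cannot be told apart from the loss of reads at repeated sequence. Reads were not lost altogether at PSMB3, since its copy held a control peak and its own start an MGO peak under the q limit. How reads were divided between the copies was not tested. The comparison with alternate contigs was made after the values were seen.

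The surroundings of PSMB3, PSMB8 and PSMB9 also held few TSS peaks. PSMB8 and PSMB9 are the interferon-inducible counterparts of PSMB5 and PSMB6, beside the peptide transporter gene TAP1. Their canonical starts lie at 32844047 and 32854192 on chromosome 6. An alternative start of PSMB9 lies 89 bp from the canonical start of PSMB8, on the opposite strand. The canonical start of PSMB9 lies 376 bp from a start of TAP1. Of 37 other protein-coding genes within 500000 bp of PSMB8, 1 had a control TSS peak and 0 had an MGO TSS peak. Around PSMB3 it was 3 of 21 in control and 5 of 21 in MGO. How many of these neighbours also have a copy on an alternate contig was not counted. Loss of reads at repeated sequence was therefore not tested for them, and the low counts do not show closed surroundings. PSMD5, which encodes a chaperone of the 19S base, had no copy and sat among open promoters, with TSS peaks at 10 of 10 neighbours in both libraries. The nearest deposited control peak was 25412 bp from its start and the nearest MGO peak 25646 bp. PSMA8, the alpha subunit of the testis proteasome, and PSMB11, the beta subunit of thymic epithelium, also lacked any deposited TSS peak. The nearest control peak lay 42471 bp from PSMA8, and 6885 bp from PSMB11, where it was the TSS peak of its neighbour PSMB5.

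The promoter sequences of 5 members are shown, 2 without a TSS peak (PSMB3 and PSMD5), 1 with a much narrower MGO peak (PSME1), 1 whose canonical and upstream peaks differed in rank between the libraries (PSMC2) and 1 with a wider MGO peak (PSMD8). Each run is the 150 bases before the RefSeq start, 5′ to 3′ on the strand of the gene, from RefSeq on GRCh38.p14. Capitals mark matches to TGACNNNGC, the core of the element bound by NFE2L1 and NFE2L2, in the first 3, and to CCGGAAG, a motif of ETS factors, in the last 2, where it lies on the reverse strand and reads CTTCCGG. PSMB3 is chr17:38752591-38752740 (plus strand), PSMD5 chr9:120842923-120843072 (minus strand), PSME1 chr14:24136044-24136193 (plus strand), PSMC2 chr7:103347493-103347642 (plus strand) and PSMD8 chr19:38374421-38374570 (plus strand).
PSMB3: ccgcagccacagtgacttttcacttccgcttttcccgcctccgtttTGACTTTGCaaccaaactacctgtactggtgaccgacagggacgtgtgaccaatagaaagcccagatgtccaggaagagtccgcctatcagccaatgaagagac
PSMD5: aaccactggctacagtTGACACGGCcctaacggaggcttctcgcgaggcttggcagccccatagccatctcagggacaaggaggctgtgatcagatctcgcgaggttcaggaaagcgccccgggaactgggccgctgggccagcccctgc
PSME1: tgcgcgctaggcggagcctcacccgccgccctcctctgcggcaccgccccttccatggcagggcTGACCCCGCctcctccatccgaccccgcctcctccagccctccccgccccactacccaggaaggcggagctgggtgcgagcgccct
PSMC2: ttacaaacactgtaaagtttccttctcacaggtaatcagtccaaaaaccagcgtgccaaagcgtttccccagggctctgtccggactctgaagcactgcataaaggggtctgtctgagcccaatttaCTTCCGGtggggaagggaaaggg
PSMD8: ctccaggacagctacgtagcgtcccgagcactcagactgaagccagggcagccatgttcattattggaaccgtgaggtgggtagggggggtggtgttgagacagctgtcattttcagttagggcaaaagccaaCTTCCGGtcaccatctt

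Letters that the promoters share were counted in the window from 250 bases before to 50 after the RefSeq start, on both strands. The table of promoters held 42 of the 48 members, with PSMA7, PSMB1, PSMB6, PSMB7, PSMD4 and PSMG3 not matched. TGACNNNGC occurred in 12 of the 42 promoters, or 28.6% (17.2 to 43.6%), against 14.3% of 15365 protein-coding promoters and 15.1% of the 10186 whose gene had a control TSS peak. CCGGAAG occurred in 15, or 35.7% (23.0 to 50.8%), against 14.8% and 19.2%. AAGATGG, a motif of YY1, occurred in 7, or 16.7% (8.32 to 30.6%), against 6.55% and 7.34%. For these 3 motifs the share over all promoters lay below the interval of the members. CCAAT, the box bound by NF-Y, occurred in 18 promoters, or 42.9% (29.1 to 57.8%), against 36.6% of all and 37.2% of those with a control TSS peak. GGGCGG, bound by SP factors, occurred in 29, or 69.0% (54.0 to 80.9%), against 61.8% and 74.4%. GCATGCG, bound by the factor NRF1, occurred in 2, or 4.76% (1.32 to 15.8%), against 5.27% and 6.67%. For these last 3 motifs both background shares lay inside the intervals of the members. The median GC content was 62.2% in the members (44.7 to 75.3%), 63.7% in all promoters and 66.3% in those with a control TSS peak. CCGGAAG and AAGATGG can share the letters AAG, so 1 stretch of DNA can count for both. Among the members only PSMC1 and PSMD8 held both motifs, at places that did not overlap. A match describes the sequence and not a bound site.

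The peaks were also counted by motif, here with the peak nearest to the canonical start used for each gene. Of the 12 genes with a TGACNNNGC match, 9 had a TSS peak in both libraries, and the 3 without were PSMB3, PSMB9 and PSMD5. Of the 30 genes with no match, 27 had one in control and 25 in MGO. The MGO peak was narrower in 6 of those 9, with a median width ratio of 0.902. It was narrower in 14 of 25 genes without a match, with a median of 0.938, and the background was 67%. For CCGGAAG the medians were 0.907 over 14 genes with a match and 0.962 over 20 without. No test of these differences was made.

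The width of the peaks was then compared between libraries, as the MGO width divided by the control width, for the 37 proteasome genes whose peaks overlapped. The median ratio was 0.934 (95% interval of the median from order statistics, 0.849 to 1.05) against 0.911 for all protein-coding genes. The MGO peak was narrower in 21 genes, or 56.8% (40.9 to 71.3%), where the background was 67%, and wider in 16, where it was 32.8%. The members' share of narrower peaks thus did not exceed that of the genome. Their median absolute log2 ratio was 0.340 against 0.242 over all genes, with no interval computed for this measure. The MGO peak was at most 0.8 times as wide in 12 of the 37 genes, for a background of 29.2%, and at least 1.25 times as wide in 7, for a background of 9.18%. In base pairs the median width was 991.5 in control and 889.5 in MGO, and over all protein-coding genes it was 1126 and 1051.

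**Figure D2:**
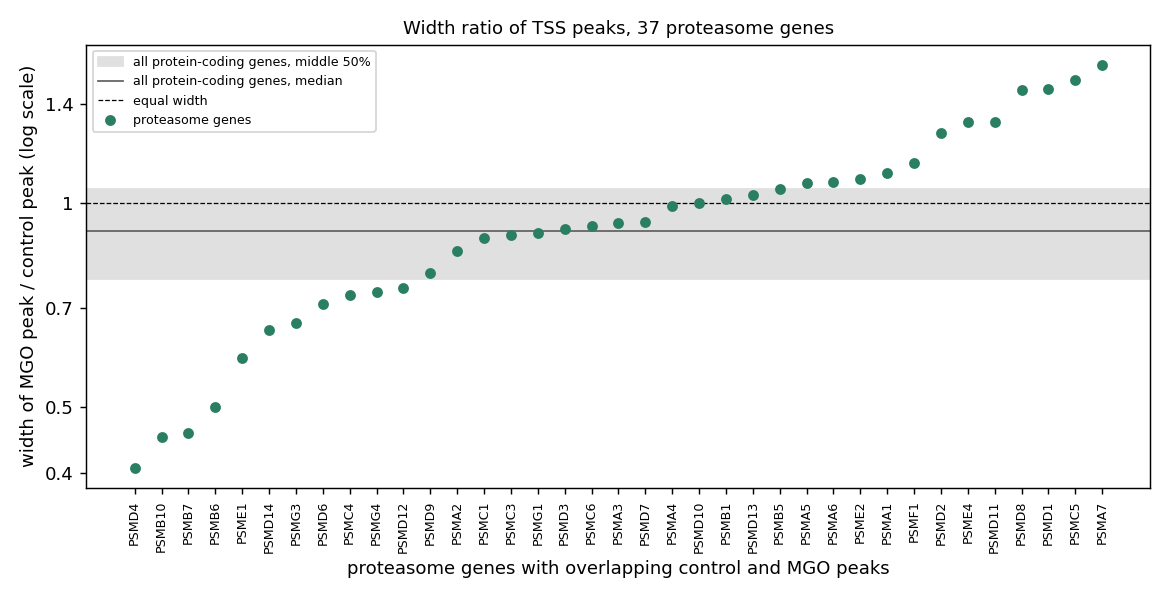
Each point is 1 proteasome gene with overlapping control and MGO TSS peaks (37 genes), ordered by the ratio of MGO to control peak width on a log axis. The grey band holds the middle 50% of all protein-coding genes around their median of 0.911, the dashed line marks equal width, and the points run from 0.407 at PSMD4 to 1.60 at PSMA7.

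The peaks that were narrowest relative to control belonged to genes of different roles. PSMD4, a ubiquitin receptor of the 19S base, had a control peak of 923 bp and an MGO peak of 376 bp, a ratio of 0.407. PSMB10, the immunoproteasome counterpart of PSMB7, went from 1585 bp in control to 716 bp in MGO, a ratio of 0.452. Its peak did not hold the canonical start and began 441 bp downstream of it in control. PSMB7, the subunit with trypsin-like activity, had peaks of 948 and 435 bp, a ratio of 0.459. PSMB6, the subunit with caspase-like activity, had peaks of 1342 and 671 bp, a ratio of 0.500. PSME1, a subunit of the interferon-inducible PA28 activator, had peaks of 935 and 553 bp, a ratio of 0.591. The side of the difference varied, since the PSMB6 peak ended 721 bp upstream of the start in control and 36 bp in MGO with its downstream edge moved by 14 bp, whereas the PSMD4 peak lost its downstream side, from 756 to 274 bp.

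The 5 peaks that were widest relative to control also came from several parts of the complex. PSMA7, an alpha ring subunit, had a control peak of 727 bp and an MGO peak of 1162 bp, a ratio of 1.60. PSMC5, an ATPase of the base, had peaks of 688 and 1044 bp, a ratio of 1.52. PSMD1, a scaffold of the base, had peaks of 668 and 985 bp, and PSMD8, a lid subunit, had peaks of 795 and 1165 bp, with ratios of 1.47 at both. PSMD11, another lid subunit, had peaks of 867 and 1143 bp, a ratio of 1.32. In MGO the downstream edge lay further from the start by 458 bp at PSMA7, 360 bp at PSMD1, 363 bp at PSMD8 and 416 bp at PSMD11. The percentile of fold enrichment within its own list was lower in MGO at all 5, with 22.4 in control and 5.30 in MGO at PSMA7 and 67.5 and 22.1 at PSMC5. Over the 16 members with a wider MGO peak it was lower in 13, where the background over all widths was 64.2% of protein-coding genes, and PSMA1, PSMD2 and PSME4 ranked higher.

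The edges of the 37 pairs were measured from the canonical start in the direction of transcription. The upstream edge was closer to the start in MGO in 26 genes, against a background of 69.2%, with a median change of −65 bp (−121 to −34), and the median over all protein-coding genes was −64 bp. The downstream edge was closer in 17 genes, against a background of 57.8%, with a median change of 13 bp (−67 to 81), and over all genes it was −28 bp. That interval holds 0 and the value over all genes, and the sign turned to −1 bp when the peak nearest to the canonical start was used for each gene. The upstream side thus matched the genome, and no direction could be read downstream.

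**Figure D3:**
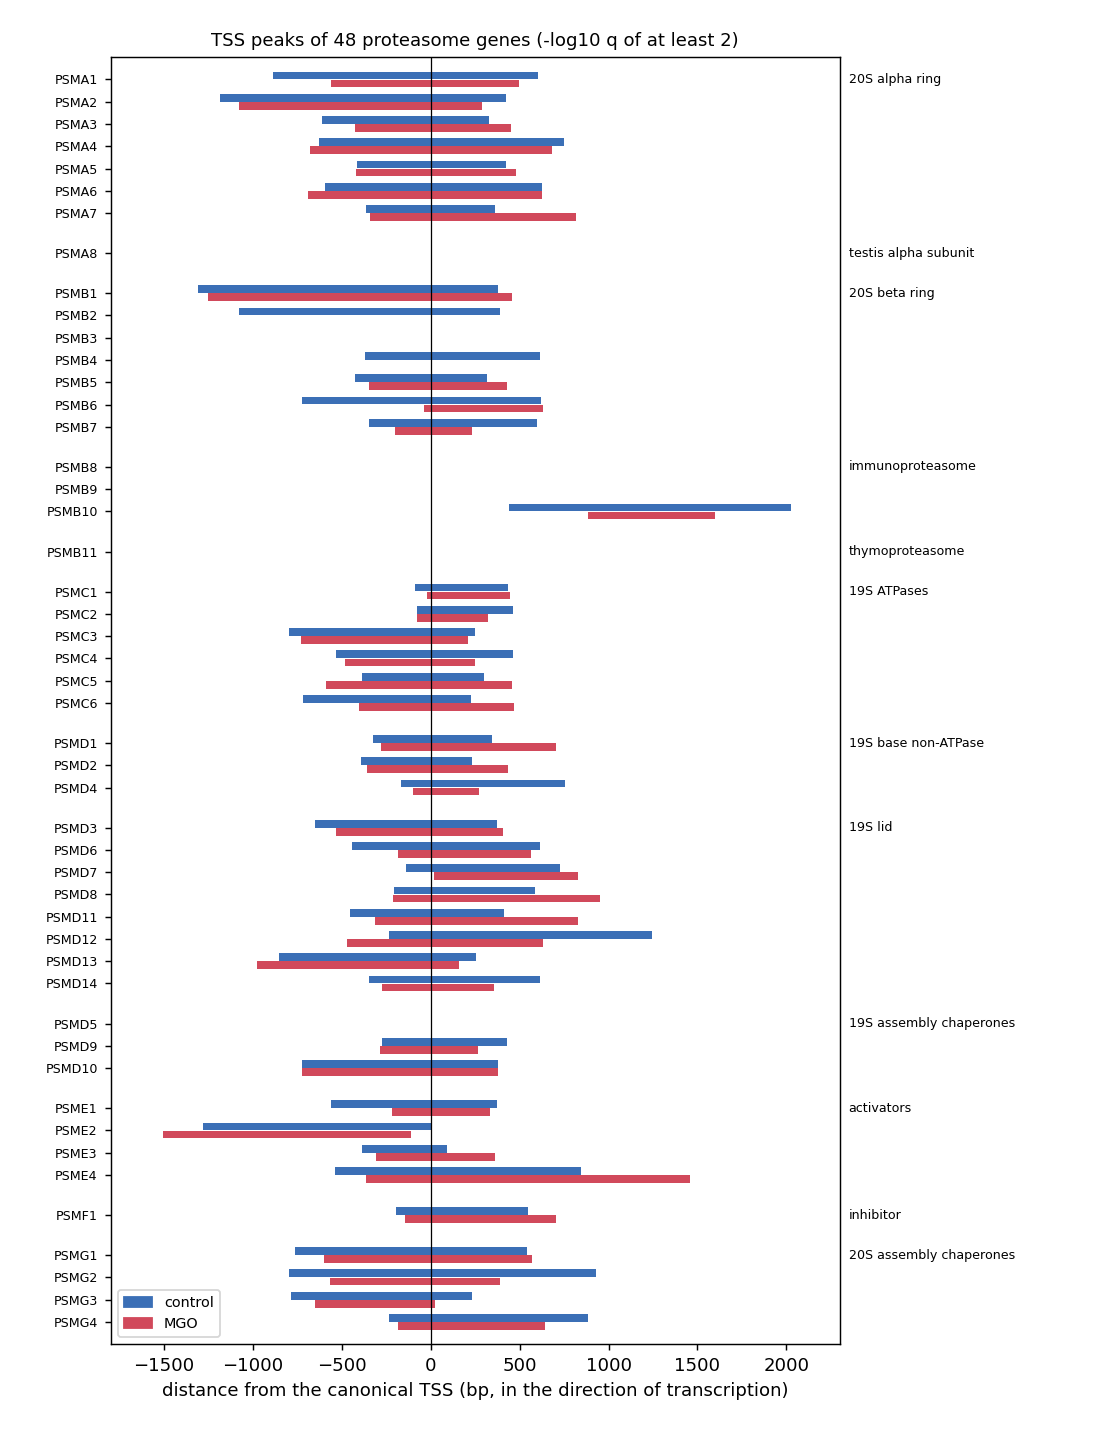
Bars show, for each of the 48 genes by role, the control (blue) and MGO (red) TSS peak nearest to the canonical start, as distance in bp from that start in the direction of transcription. Most pairs span the start at 0, the 6 genes without a kept peak are blank, PSMB2 and PSMB4 have a control bar alone, and the PSMB10 peaks lie downstream of 0.

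The 7 genes of the alpha ring differed among themselves. PSMA7 had the highest width ratio of all members, as given above. The control and MGO widths were 1608 and 1365 bp at PSMA2, 942 and 880 bp at PSMA3, 1377 and 1364 bp at PSMA4, 841 and 899 bp at PSMA5, and 1220 and 1312 bp at PSMA6. With the strongest peak of each gene, the median ratio in the group was 1.07, with 3 narrower and 4 wider, against a background of 67% narrower. PSMA1 had TSS peaks at separate starts. The stronger one, with edges up to 124545 bp upstream of the canonical start, spanned 1352 bp in control and 1497 bp in MGO. At the canonical start the peak spanned 1487 bp in control and 1056 bp in MGO, so the choice of start turns the direction for this gene. It also turns the majority of the group to narrower, with the median ratio then that of PSMA4 (0.991).

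Among the catalytic beta subunits, PSMB5, which has the chymotrypsin-like activity, differed least in width. Its peak spanned 744 bp in control and 781 bp in MGO, a ratio of 1.05, with a fold enrichment of 4.02 and 3.35. PSMB6 and PSMB7 were narrowed as given above, with fold enrichments of 3.25 and 3.42 at PSMB6 and of 3.34 and 3.03 at PSMB7. PSMB1, a non-catalytic subunit whose promoter lies beside that of TBP, had a control peak of 1683 bp, the widest where the strongest peak of each member was taken, and an MGO peak of 1708 bp. The fold enrichment at PSMB1 was 4.36 in control and 3.32 in MGO.

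The 6 ATPases of the 19S base all had TSS peaks in both libraries. PSMC1 had narrow peaks of 525 bp in control and 466 bp in MGO. The widths were 1046 and 939 bp at PSMC3, 993 and 727 bp at PSMC4, and 946 and 876 bp at PSMC6. The MGO peak was narrower in 4 of 5 pairs, against a background of 67%, with PSMC5 the exception. PSMC2 had peaks at separate starts, which ranked differently in the libraries. In control its strongest peak lay upstream, reaching 3503 bp from the canonical start, with a fold enrichment of 3.68 against 2.84 at the canonical start. In MGO the canonical peak was the stronger, at 3.23 against 2.69 upstream. Both starts had a peak in both libraries.

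In the 19S lid and the non-ATPase part of the base all 11 genes had overlapping pairs. PSMD14, the deubiquitinase that cuts ubiquitin chains off substrates, had peaks of 966 bp in control and 628 bp in MGO. The widths were 1024 and 936 bp at PSMD3, 1057 and 751 bp at PSMD6, 866 and 812 bp at PSMD7, 1477 and 1106 bp at PSMD12, and 1108 and 1139 bp at PSMD13. PSMD2, a receptor for shuttle factors, had peaks of 628 and 795 bp. The MGO peak was narrower in 5 of the 8 lid genes, a median ratio of 0.926, and in 1 of the 3 base genes. The background was 67% of protein-coding genes. The MGO peak of PSMD7 began 17 bp downstream of the canonical start, whereas the control peak held it.

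Among the chaperones of the 19S base, PSMD10 (gankyrin) had nearly the same peak in both libraries, 1100 bp in control and 1101 bp in MGO, with edges within 1 bp of each other. PSMD9 had peaks of 703 and 555 bp. Among the chaperones of the 20S core the MGO peak was narrower in 3 of 3 overlapping pairs, against a background of 67%. So few pairs allow no comparison. The widths were 1302 and 1174 bp at PSMG1, 1018 and 678 bp at PSMG3, and 1117 and 826 bp at PSMG4. At PSMG2 the strongest peaks of the libraries lay at different starts, and at the canonical start the widths were 1732 and 954 bp.

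Of the activators, PSME2, the partner of PSME1 in PA28, had peaks of 1289 bp in control and 1396 bp in MGO, and PSME4 (PA200), an activator of chromatin-bound proteasomes, peaks of 1384 and 1823 bp. PSME1 and PSME2 are neighbours on chromosome 14, and the ratio was 0.591 at the former and 1.08 at the latter. PSME3 (PA28 gamma) had weak peaks that did not overlap where the strongest was taken, and peaks of 476 and 671 bp at the canonical start. PSMF1, which encodes the inhibitor PI31, had peaks of 745 and 853 bp. With the peak nearest to the canonical start used for every gene, all 40 pairs overlapped, the median ratio was 0.920 and 24 were narrower in MGO, again with a background of 67%.

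The height of the peaks was compared by rank, because fold enrichment depends on the background of each library. Each peak was given its percentile of fold enrichment among the kept peaks of its own list. The median percentile of the members was 66.8 in control (95% interval of the median, 54.0 to 76.2) and 55.9 in MGO (48.7 to 65.3), against 63.7 and 54.3 for all protein-coding genes with a TSS peak. Proteasome promoters thus ranked near other promoters in each library. The percentile was lower in MGO for 29 of 40 genes, or 72.5%, where the background was 64.2%, and the median paired difference was −15.1 percentile points against −5.59 over all genes. When both lists were cut to the same number of peaks, these differences became −4.35 and 1.30, so that much of the size depends on the unequal length of the lists.

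**Figure D4:**
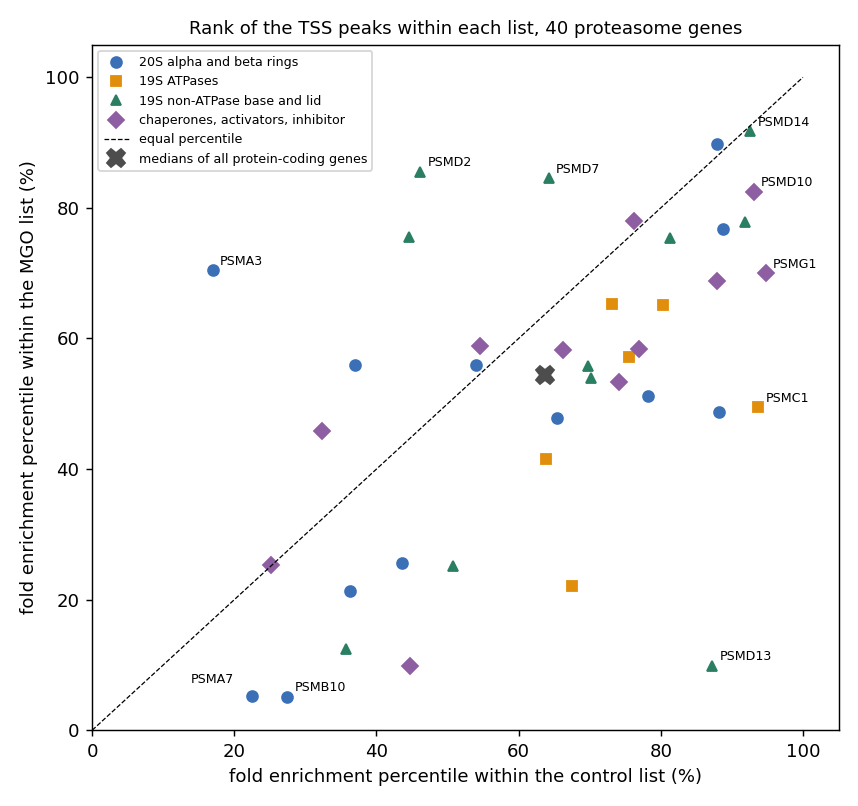
Each point is 1 of the 40 proteasome genes with a TSS peak in both libraries, with its fold enrichment percentile within the control list on the x axis and within the MGO list on the y axis, marked by role. Of the points, 29 lie below the dashed line of equal percentile, and the grey cross marks the medians of all protein-coding genes (63.7 and 54.3).

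The highest ranks in control belonged to PSMG1 (percentile 94.7), PSMC1 (93.7) and PSMD10 (93.1), and the lowest to PSMB4 (8.84), PSMA3 (17.0) and PSMA7 (22.4). In MGO the highest were PSMD14 (91.7), PSMA1 (89.8) and PSMD2 (85.5), and the lowest PSMB10 (5.14), PSMA7 (5.30) and PSME1 (9.89). PSMD14 held its place, with 92.6 in control, and PSMA7 was low in both. The order of the others changed in part. PSMC1 stood at 49.4 in MGO, and PSMD13, a lid subunit, at 87.2 in control and 9.90 in MGO. In the opposite direction PSMA3 went from 17.0 to 70.5, PSMD2 from 46.1 to 85.5 and PSMD4 from 44.6 to 75.5. By role, the percentile was lower in MGO for 6 of 6 ATPases, 7 of 8 lid genes and 1 of 3 non-ATPase base genes, and for 7 of the 11 genes of the constitutive rings, each beside the background of 64.2%. The count of ATPases sets different starts of PSMC2 against each other. At its canonical start the percentile of PSMC2 was 9.48 in control and 41.5 in MGO, which makes the count 5 of 6. Without replicates the error of a single percentile is unknown.

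The strength of the control peak went with its overlap. All kept control peaks were divided into 5 equal groups by −log10 p, and the members fell 2, 3, 13, 14 and 10 into them from weakest to strongest. The MGO overlap was 1 of 2, 3 of 3, 12 of 13, 14 of 14 and 10 of 10, and over all protein-coding genes it was 46.2, 64.8, 84.7, 96.6 and 99.8%. The control-only gene in the weakest group was PSMB4 and the one in the middle group PSMB2. The weaker groups hold too few members for a comparison. The MGO peak was narrower in 1 of 3 pairs in the second group (63.6% of all genes there), 11 of 12 in the middle group (66.7%), 6 of 12 in the fourth (68.0%) and 3 of 10 in the strongest (67.7%).

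Many members share their promoter. A protein-coding gene started on the opposite strand within 1000 bp upstream at 12 of the 48 genes, or 25%, against 12.6% of all protein-coding genes. These pairs were PSMA2 with MRPL32, PSMA7 with SS18L1, PSMB1 with TBP, PSMB8 with PSMB9, PSMB9 with TAP1, PSMC5 with FTSJ3, PSMD10 with ATG4A, PSMD13 with SIRT3, PSME2 with RNF31, PSME3 with BECN1, PSME4 with ACYP2 and PSMG2 with CEP76. The distance between starts ran from 45 bp at PSMD13 to 995 bp at PSMB1. It was measured from the canonical start of the member to the nearest annotated start of the partner. At PSMB8 that was an alternative start of PSMB9. In 16 of 42 genes, or 38.1%, the peak nearest to the canonical start held a start of another gene, against 41.8% of all, and besides partners named above these were non-coding or unnamed genes at PSMA1, PSMB10, PSMD7, PSMD9, PSMD14, PSMF1 and PSMG3. A peak over such a pair cannot be assigned to either gene. Of the 8 members with a divergent protein-coding partner and overlapping peaks, the MGO peak was wider in 7, for a background of 40.5% of protein-coding genes with such a partner. In 3 of those 7 the widths were nearly equal, with differences of 1 bp at PSMD10, 25 bp at PSMB1 and 31 bp at PSMD13. Of the 29 members without one it was wider in 9, for a background of 31%. This split was made after the ratios were seen.

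Other peaks near the proteasome genes lay mostly at starts of other genes. Over the gene bodies and 10000 bp to either side, the control list held 20 peaks at starts of genes other than the one examined, and the MGO list 17. In each list 3 of these were the TSS peaks of neighbouring members (PSMB5, PSME1 and PSME2). Of the 17 left in control, 14 were overlapped in MGO, where 83.5% of all control peaks at gene starts were. Of the 14 left in MGO, 13 were overlapped in control, where 96.2% of all MGO peaks at gene starts were. Peaks away from any start numbered 2 in control and 2 in MGO. The control ones lay upstream of PSMA3 (523 bp, −log10 q 2.30) and inside PSMD14 (735 bp, −log10 q 2.48), and neither was overlapped by any deposited MGO peak. The MGO ones lay inside PSMA1 (1011 bp, −log10 q 3.68) and beside PSMD14 (730 bp, −log10 q 5.58). The one in PSMA1 overlapped no kept control peak, but it did overlap a deposited control peak under the q limit. The one beside PSMD14 overlapped a wider control peak within 1000 bp of a start of TBR1.

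Other genes of the pathway, taken from a list outside the symbol rule, also had open promoters. All 24 had a TSS peak in control and in MGO, and 23 control peaks were overlapped. Of the 21 pairs of strongest peaks, 12 were narrower in MGO and 9 wider, with a median ratio of 0.987. The background was 67% narrower. NFE2L1 had peaks of 978 bp in control and 1134 bp in MGO. DDI2, the protease that activates NFE2L1, had peaks of 963 and 738 bp, and NGLY1, which removes its glycans, had its strongest peaks at different starts. ADRM1, a ubiquitin receptor of the 19S particle, kept its width at 1231 and 1215 bp, with a percentile of 54.1 in control and 3.78 in MGO. POMP, the maturation factor of the 20S core, had peaks of 1292 and 1105 bp. The polyubiquitin gene UBB had peaks of 718 and 1052 bp, a ratio of 1.47. The percentile was lower in MGO for 19 of the 24, against a background of 64.2%.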

How the data were processed

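The lists of broad ATAC-seq peaks of 293T cells, 1 control and 1 MGO library, were read as deposited. The authors aligned the reads to GRCh38.p12 with BWA-MEM (BWA 0.7.15), discarded reads on mitochondrial DNA and multi-mapping reads with Picard (version 2.16.0 in the submitters' processing notes), subsampled reads to equal depth and called peaks with MACS2, whose version is not given in the sources used here, outside ENCODE blacklist regions. The deposited values are the authors' fold enrichment of each peak (a ratio over background), its p-value and its q-value, both as −log10, and a score. The score was not used. For comparison between libraries, fold enrichment was turned into a rank within its own list. Values of single genes are also given from both lists, and 1 alternative applied a fold enrichment limit of 4 to both. These raw values depend on the background of each library and are not on a common scale. Removal of multi-mapping reads can lower coverage where GRCh38 repeats a region on alternate contigs, and subsampling leaves the depth behind a peak unknown.

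Peaks whose −log10 q reached 2 were assigned to starts of GENCODE 44 within 1000 bp, and peaks overlapped from 1 bp. Copies on alternate contigs were sought with minimap2 2.31, as alignments of at least 90% of a 2001 bp window at 95% identity or more. Computations used Python 3.11.15, numpy 2.4.6, scipy 1.17.1, pysam 0.24.0 and matplotlib 3.10.9, were tested on simulated data, and overlaps were checked with bedtools 2.31.1. The labelled cell line was not checked against marker genes.

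The members, gene lists and tests were chosen with earlier results of these data known. The genes named were those without a TSS peak in a list or with one under the q limit, those with peaks that did not overlap, the 5 lowest and 5 highest width ratios, the 3 highest and 3 lowest percentiles in each list, the catalytic, immune and tissue-specific subunits, and those sharing a peak, and further members were named by role after their values were seen. The alternatives were all deposited peaks, other limits on q and fold enrichment, equal numbers of peaks, windows of 500 and 2000 bp, 1 canonical start per gene, the peak nearest to it, overlap of 50%, other rankings, and shared peaks counted once. The check of alternate contigs and the inclusion of PSMC3IP were added after the data were seen.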

Additional observations from a re-analysis of the deposited data

How the results depend on the processing

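With 1 library analysed per condition, no replicate could be left out, and no depth limit could be computed from lists without read counts. No paired analysis was possible because 1 library of each condition was analysed. Of 106 values recomputed under the alternatives, 87 stayed within the interval of the value given (or, for counts of other nearby peaks, close to it), 16 moved further and 3 changed sign. The median width ratio and the share of narrower peaks stayed within their intervals under every alternative run. At a minimum −log10 q of 5 a TSS peak remained in 60.4% of members in control and 37.5% in MGO, with 51.7% of control peaks overlapped and median percentiles of 48.3 and 48.0. Over all protein-coding genes these shares were 43.0, 31.5 and 68.7%. At a minimum fold enrichment of 4 these shares were 27.1, 8.33 and 15.4%, against 20.8, 10.2 and 39.6% over all protein-coding genes, with percentiles of 47.7 and 22.9, and the 2 pairs left had median edge changes of −3 bp upstream and −93.5 bp downstream. These limits leave fewer peaks by construction, and at both the share of overlapped control peaks lay below that of all genes, the reverse of 95.2 against 88.5%. At a fold enrichment of 4 so did the share with an MGO peak. With all deposited peaks in both lists, or in MGO alone, 100% of control peaks were overlapped, and with both lists in full the median percentiles were 78.1 and 68.9. With equal numbers of peaks the median percentile difference was −4.35. The downstream edge change of 13 bp became −1 bp both with 1 canonical start per gene and with the peak nearest to that start, and the cause was not tested.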

Other observations

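PSMC3IP, whose symbol begins like those of the ATPases but whose product acts in meiotic recombination, was left out of the 48 genes. It had a control TSS peak of 989 bp with a fold enrichment of 2.96 and a −log10 q of 3.02, and no kept MGO TSS peak. It was looked at after its values were seen, and counting it with the members kept every share inside its interval.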
